A study of Mus musculus with 32 samples.

Results

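The mitosis genes described here are 48 genes whose products drive entry into mitosis, chromosome condensation, spindle assembly, chromosome segregation and cytokinesis. The genes were chosen by name, and their probe sets were found by the gene symbol given in the platform annotation. Of the 48 genes, 47 were measured by 112 probe sets among 45037 on chip types A and B. Cyclin B1 (Ccnb1) was not analysed here. A probe set was tested where its signal exceeded the median of its chip type on at least 3 arrays, which kept 92 of the 112 probe sets and all 47 genes. Each gene is represented by its brightest tested probe set, which lay on chip type A for 39 genes and on chip type B for 8.

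The series profiled RNA of mouse bone marrow cells on Affymetrix arrays, with 1 array of each chip type for each of 16 samples. Stem-enriched cells (3 samples) came from a flow cytometer; instrument records name them Lin-Sca1+cKit+, that is, without markers of mature lineages and with both surface antigens of primitive marrow cells. The other sorted cells were Lin-Sca-1-cKit+ cells, held to be more downstream progenitors (cKit-positive cells, 3 samples), Lin-Sca-1-cKit- cells, thought to lean towards lymphoid lineages (cKit-negative cells, 3 samples) and Lin-Sca-1+cKit- cells (1 sample, never tested). Lineage-depleted marrow (3 samples) came from a SpinSep progenitor enrichment kit, and total marrow (3 samples) was unsorted and serves as the reference of all others. The labels name no treatment, and strain and age are not given in the sources used here. Nor is it stated that replicates of a population are different animals, so p-values measure only the spread between these samples. In bulk RNA of this kind, fewer dividing cells and less message per dividing cell cannot be told apart.

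Mitosis separates the replicated chromosomes into a pair of daughter cells. Cyclin A2 or a B-type cyclin bound to Cdk1 starts it, polo and aurora kinases build the spindle, and the spindle checkpoint holds back the anaphase-promoting complex until every kinetochore is attached. Most of these genes are transcribed in G2 and early mitosis, so their messages mark cells in cycle. In marrow, long-term stem cells divide rarely, while committed progenitors and early erythroid, granulocyte and B lineage precursors divide often.

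Many mitosis genes are known to share a pair of promoter elements. The cell cycle genes homology region (CHR) is searched here as TTTGAA or TTCGAA, and the box that the factor NF-Y binds as CCAAT, on both strands of a window from 250 bases before to 50 bases after the transcription start. RefSeq promoters (GRCm38.p6) were matched for 40 of the 47 measured genes. A CHR match lay in 31 of the 40 (77.5%), against 19.4% of 27025 promoters in the table. CCAAT lay in 29 (72.5%), against 37.9%, and both motifs lay in 27 (67.5%), against 7.7%. Among the 21 genes with a promoter that were called lower in stem-enriched or cKit-positive cells than in total marrow, 17 held a CHR match (81%), and among the other 19 members 14 did (73.7%). These matches describe letters in a window and show no binding. The 150 bases before the start are printed 5′ to 3′ for the 6 genes with the lowest F test p and for Cdk1, Ccnb2 and Top2a, which were called in no comparison, with both motifs in capitals (ATTGG and TTCAAA are the reverse strand of CCAAT and TTTGAA). They lie at chr7:135716380-135716529 (minus strand, Mki67), chr2:131186798-131186947 (plus strand, Cdc25b), chr1:189688087-189688236 (minus strand, Cenpf), chr2:119618148-119618297 (plus strand, Nusap1), chr4:118437344-118437493 (minus strand, Cdc20), chr7:127042421-127042570 (minus strand, Kif22), chr10:69352913-69353062 (minus strand, Cdk1), chr9:70421555-70421704 (minus strand, Ccnb2) and chr11:99024190-99024339 (minus strand, Top2a).
Mki67: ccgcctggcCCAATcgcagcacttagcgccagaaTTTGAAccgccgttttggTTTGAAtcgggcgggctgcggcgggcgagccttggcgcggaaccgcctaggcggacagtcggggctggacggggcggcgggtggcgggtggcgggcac
Cdc25b: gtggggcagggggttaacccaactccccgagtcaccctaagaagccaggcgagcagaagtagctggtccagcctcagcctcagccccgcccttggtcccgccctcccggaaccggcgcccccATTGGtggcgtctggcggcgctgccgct
Cenpf: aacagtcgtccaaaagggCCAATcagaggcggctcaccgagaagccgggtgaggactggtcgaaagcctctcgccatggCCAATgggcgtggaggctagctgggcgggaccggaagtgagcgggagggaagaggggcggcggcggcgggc
Nusap1: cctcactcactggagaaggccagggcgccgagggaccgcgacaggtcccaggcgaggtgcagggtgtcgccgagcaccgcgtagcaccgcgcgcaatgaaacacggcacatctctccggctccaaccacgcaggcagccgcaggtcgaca
Cdc20: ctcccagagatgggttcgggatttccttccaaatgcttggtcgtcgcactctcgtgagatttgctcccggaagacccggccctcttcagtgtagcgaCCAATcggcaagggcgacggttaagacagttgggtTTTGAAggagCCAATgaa
Kif22: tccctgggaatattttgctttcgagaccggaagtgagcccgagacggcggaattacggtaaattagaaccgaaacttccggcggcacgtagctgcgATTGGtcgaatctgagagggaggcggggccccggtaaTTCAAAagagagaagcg
Cdk1: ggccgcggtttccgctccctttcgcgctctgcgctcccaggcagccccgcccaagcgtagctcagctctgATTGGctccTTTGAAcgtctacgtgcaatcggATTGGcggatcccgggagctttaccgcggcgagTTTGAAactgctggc
Ccnb2: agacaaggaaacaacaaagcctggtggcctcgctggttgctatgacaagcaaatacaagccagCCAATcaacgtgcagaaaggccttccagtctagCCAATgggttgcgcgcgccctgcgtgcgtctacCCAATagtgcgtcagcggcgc
Top2a: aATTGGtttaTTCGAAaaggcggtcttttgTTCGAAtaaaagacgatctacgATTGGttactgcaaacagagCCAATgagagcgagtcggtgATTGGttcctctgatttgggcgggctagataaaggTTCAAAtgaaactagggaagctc
Mki67, Cdc20, Kif22, Cdk1 and Top2a held both motifs in the printed stretch. Cdc25b, Cenpf and Ccnb2 held CCAAT and no CHR match, and Nusap1 held neither.

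Values are MAS5 signals, a linear brightness of a probe set that the submitters had scaled on each array. Differences are on the log2 scale after signals under the 25th percentile of the chip type were raised to it. A gene was called where limma gave a Benjamini-Hochberg adjusted p under 0.05 over all 28949 tested probe sets. The F test over the 5 replicated populations called 14 of 47 mitosis genes (the background is 19.9% of 13599 genes). They were, from the lowest p, Mki67, Cdc25b, Cenpf, Nusap1, Cdc20, Kif22, Cdc25c, Smc2, Smc4, Kif2c, Kif23, Incenp, Plk1 and Ube2c. Without total marrow replicate 3 the count was 9.

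The direction was nearly uniform. Total marrow had the highest mean of the 5 populations for 32 of 47 mitosis genes (68.1%), against 20.4% of all tested genes. Lineage-depleted marrow was highest for 8 (17%, against 13.8% of all genes). The cKit-positive cells were highest for 3 (6.38%, against 28.5%), stem-enriched cells for 2 (4.26%, against 24.2%) and cKit-negative cells for 2 (4.26%, against 13.1%). The lowest mean was that of cKit-positive cells for 21 genes (44.7%, against 23%) and of stem-enriched cells for 19 (40.4%, against 17.6%). Relative to each gene's mean, the median mitosis gene stood at -0.05, -0.29 and -0.41 log2 units in the stem-enriched samples and at -0.04, -0.67 and -0.16 in the cKit-positive ones. It stood at 0.36, -0.13 and -0.16 in cKit-negative cells, at 0.27, 0.05 and 0.11 in lineage-depleted marrow and at 0.25, 0.58 and 0.40 in total marrow. The 3 total marrow samples were among the 5 highest of the 15, and cKit-positive replicate 2 was the lowest.

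**Figure D1:**
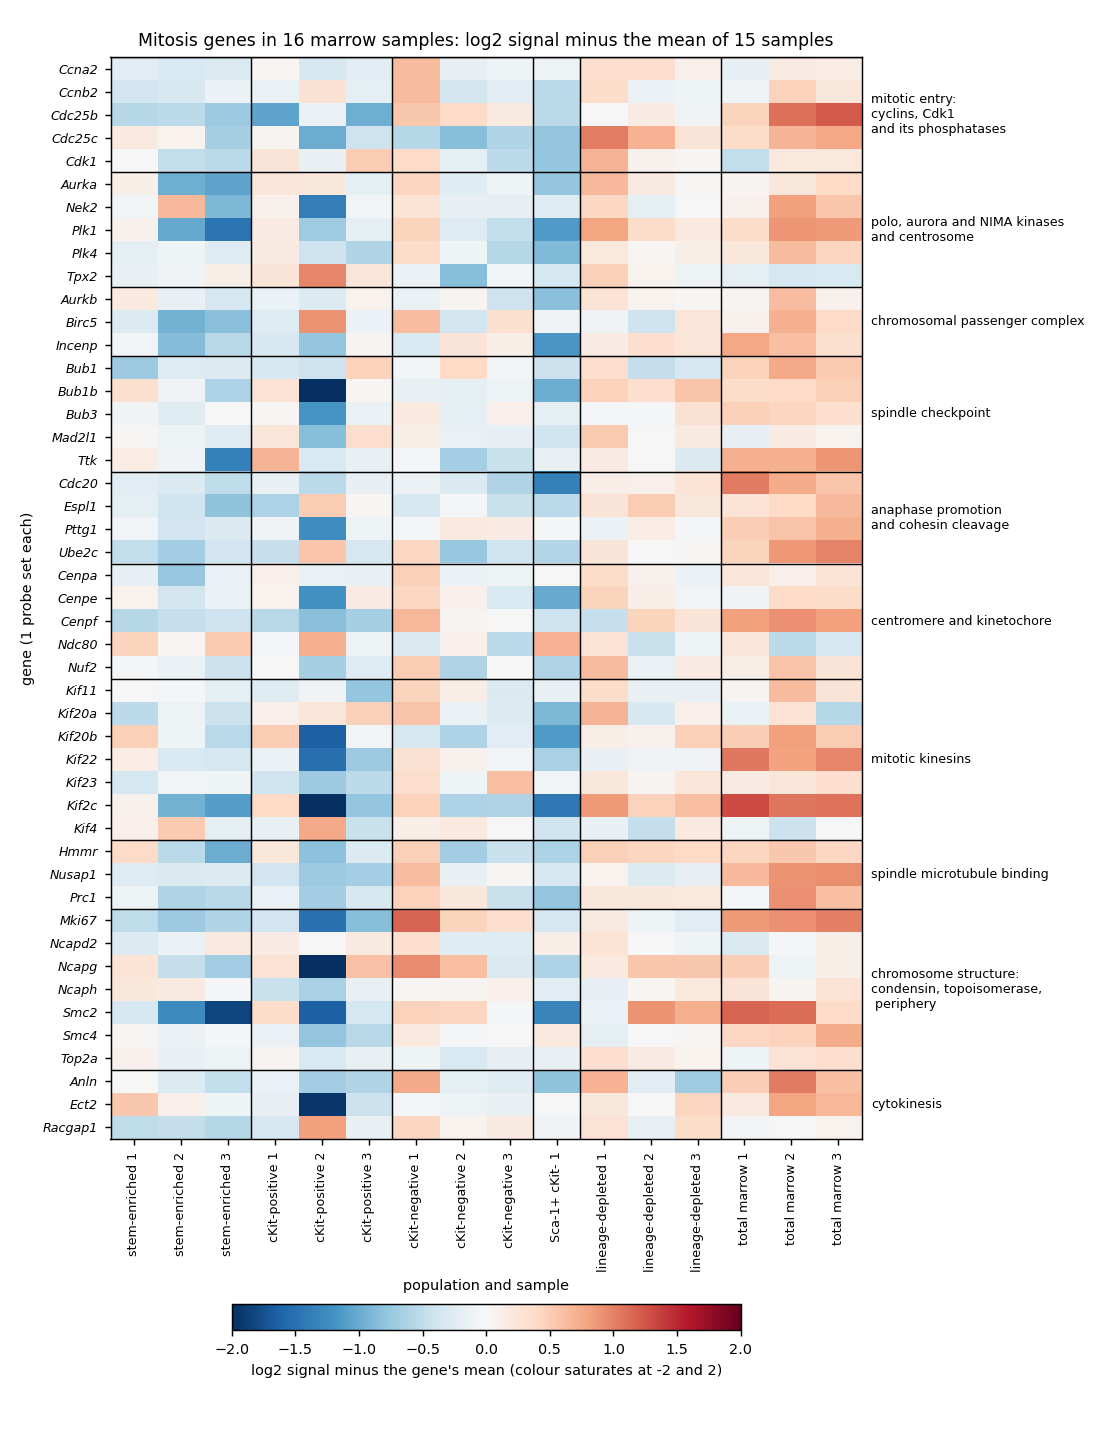
Log2 signal of 47 mitosis genes (rows, grouped by role) in 16 samples (columns, grouped by population), each minus the gene's mean over the 15 samples of the replicated populations; blue is lower and red higher. The total marrow columns are mostly red, the stem-enriched and cKit-positive columns mostly blue, and cKit-positive replicate 2 holds several of the darkest cells.

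Stem-enriched cells had 17 of 47 mitosis genes lower than total marrow and none higher, where 8.25% of all genes were called lower. The median difference was -0.59 for the mitosis genes and 0.126 for all genes tested, and 43 of 47 differences were below 0. In 32 genes the highest stem-enriched sample lay below the lowest total marrow sample (background 17.3%). The 17 calls comprised Birc5, Bub1, Cdc20, Cdc25b, Cenpf, Espl1, Incenp, Kif22, Kif2c, Mki67, Nusap1, Plk1, Prc1, Pttg1, Smc2, Ttk and Ube2c. Of these, 7 stayed called whichever of the 15 samples was left out, namely Cdc20, Cdc25b, Cenpf, Mki67, Nusap1, Smc2 and Ube2c. The count was 9 without stem-enriched replicate 2, 8 without stem-enriched replicate 3, 10 without total marrow replicate 2 and 10 without total marrow replicate 3. With chip lot as a block on chip type A it was 2, Cdc25b and Smc2, and the median difference was -0.37. Smc2 lies on chip type B, which had no block, so its difference could not change. Under the lot block Nusap1 was at -0.68, Prc1 at -0.48, Pttg1 at -0.52 and Ttk at -0.53. Birc5 was at -1.14, Bub1 at -1.40, Cdc20 at -0.83, Incenp at -1.19 and Ube2c at -1.38 with it, and none of them was called. No lot of chip type A held both populations, so the block estimate rests on other populations with samples in different lots. Among these are cKit-positive cells, with replicate 1 in the lot of total marrow and replicates 2 and 3 in that of stem-enriched cells. That replicate 2 stood apart from the other samples, as given below. On chip type B all total marrow arrays came from a lot that no other replicated population used, and on neither chip type was an array of another replicated population scanned on the same day as total marrow. So the scan day, and on chip type B the lot, cannot be told apart from total marrow. The same held for the scan day of stem-enriched cells and of lineage-depleted marrow. On both chip types, each of these populations was scanned on a day that no other population shared. Every comparison with either of them is therefore also a comparison between scan days.

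Progenitors of the cKit-positive sort gave 18 lower mitosis genes against total marrow and none higher, where the background is 10.7% called lower. Their median was -0.74, against 0.143 over all genes, and 26 genes did not overlap (background 15.8%). The calls were Anln, Bub3, Cdc20, Cdc25b, Cdc25c, Cenpf, Ect2, Incenp, Kif22, Kif23, Kif2c, Mki67, Ncaph, Nusap1, Prc1, Pttg1, Smc2 and Smc4, of which 9 stayed called with any 1 sample left out (Cdc20, Cdc25b, Cenpf, Kif22, Kif2c, Mki67, Nusap1, Pttg1 and Smc4). The count was 11 without total marrow replicate 2. With the lot block, where the median was -0.55, it was 8 (Cdc20, Cdc25b, Cdc25c, Cenpf, Kif22, Mki67, Nusap1 and Smc2), with Bub3 at -0.41 and Ect2 at -0.86, and within the 1 lot that held cKit-positive replicate 1 and all total marrow samples it was 4 (Cdc25b, Cenpf, Mki67 and Nusap1). On chip type A that last fit sets 1 cKit-positive sample against 3 and assumes that it varies like total marrow. Cdc25c and Smc2 lie on chip type B, which had no lot block, so their differences could not change under it. Both comparisons share the total marrow samples.

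cKit-positive replicate 2 stood apart from the other samples. Its correlation with any other sample over all genes was 0.578 to 0.715, and its log2 ratio of 3 prime to 5 prime Gapdh control signal was 0.38, against 2.68 to 4.17 on the other chip type A arrays. Without it, 13 mitosis genes were called lower in cKit-positive cells than in total marrow, with a median of -0.50. The differences of 5 called genes shrank by over 1.5 times, to -0.46 for Bub3, -0.86 for Ect2, -1.34 for Kif2c, -0.68 for Pttg1 and -0.88 for Smc2. The stem-enriched samples had the highest Gapdh ratios, 3.84 to 4.17, against 2.74 to 3.38 in total marrow, and their b-Actin ratios were 2.54 to 2.98, against 1.11 to 2.08, with no overlap for either control. With the Gapdh ratio as a covariate, 23 mitosis genes were called lower in stem-enriched cells than in total marrow (15 of the 17 among them, median -0.86) and 13 in cKit-positive cells (11 of the 18 among them, median -0.61), with none higher in either. Within populations the ratio varied most through cKit-positive replicate 2, so the fitted slope rests largely on that sample. It is then extended to stem-enriched samples outside the total marrow range. The part of the ratio in the differences was not tested.

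**Figure D2:**
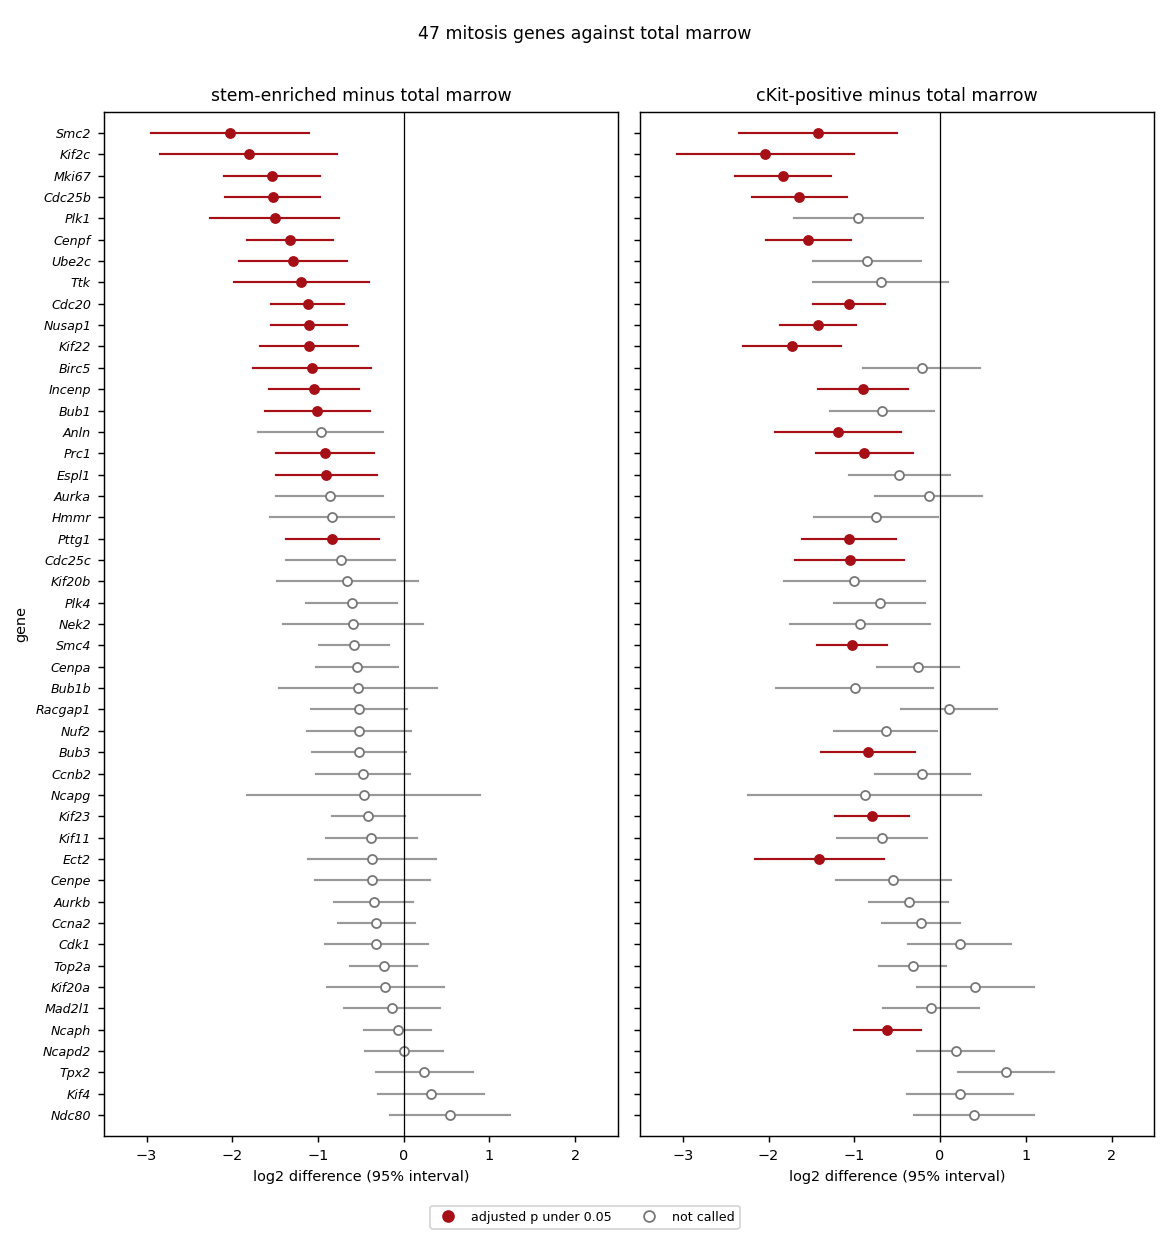
Log2 difference from total marrow with its 95% interval for each of 47 mitosis genes (rows), in stem-enriched cells on the left and cKit-positive cells on the right; filled points had an adjusted p under 0.05. The 17 filled points on the left and 18 on the right all lie below 0.

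Among the regulators of mitotic entry, the phosphatase gene Cdc25b was lower and the Cdk1 gene was not called. Cdc25b and Cdc25c remove inhibitory phosphates from Cdk1. Cdc25b signal was 1567, 1603 and 1405 in stem-enriched cells, 1115, 2139 and 1174 in the cKit-positive cells, 3377, 3014 and 2625 in cKit-negative cells, 2318, 2596 and 2195 in lineage-depleted marrow and 3168, 4949 and 5418 in total marrow. Every stem-enriched and cKit-positive sample lay below every cKit-negative and total marrow sample. The difference from total marrow was -1.53 ± 0.26 (SE, 2.89-fold lower, limma adjusted p = 0.000826) in stem-enriched cells and -1.64 ± 0.26 (3.12-fold lower, adjusted p = 0.000407) in cKit-positive cells. Under the lot block these were -1.83 (adjusted p = 0.0159) and -1.84 (adjusted p = 0.00301). Cdc25b was also lower in both than in cKit-negative cells, by 0.97 (adjusted p = 0.0281) and 1.09 (adjusted p = 0.0125) on the log2 scale.

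Cdc25c signal was 5505, 5045 and 3052 in stem-enriched cells, 5020, 2410 and 3602 in the cKit-positive cells, 3229, 2657 and 3166 in cKit-negative cells, 9798, 7787 and 5772 in lineage-depleted marrow and 6180, 7701 and 8213 in total marrow. Both unsorted populations lay above all 3 replicated sorted ones. The call was made in cKit-positive cells against total marrow (-1.05 ± 0.30, adjusted p = 0.0219) and in cKit-negative cells against lineage-depleted marrow (-1.34 ± 0.30, adjusted p = 0.0309), where it was the single call among 47 (1.11% of all genes were lower). The call against lineage-depleted marrow was lost on leaving out any 1 of its own 6 samples. Cdk1, the catalytic subunit, had 6813, 4806 and 4662 in stem-enriched cells and 8115, 6107 and 9626 in cKit-positive cells, against 4823, 7832 and 7850 in total marrow, and these ranges overlap. Its differences were -0.32 with a 95% interval of -0.92 to 0.28 in stem-enriched cells, and 0.23 with an interval of -0.37 to 0.83 in cKit-positive cells. The cyclin genes Ccna2 and Ccnb2 were called in no comparison by their brightest probe sets.

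Of the polo, aurora and NIMA kinases and their partners, Plk1 was called. Plk1 is the polo kinase that acts at centrosomes, kinetochores and the midbody. Its signal was 3466, 1608 and 1188 in stem-enriched cells, 3664, 1992 and 2855 in the cKit-positive cells, 4462, 2723 and 2325 in cKit-negative cells, 5659, 4233 and 3728 in lineage-depleted marrow and 4237, 6051 and 5920 in total marrow. Stem-enriched samples all lay below total marrow, but one of them lay well above the other pair. The difference was -1.51 ± 0.36 (2.84-fold lower, adjusted p = 0.00862), and -0.95 (adjusted p = 0.315) under the lot block. Aurka, which builds spindle poles, had a difference of -0.86 (adjusted p = 0.0613) in stem-enriched cells and -0.13 (adjusted p = 0.804) in cKit-positive cells, and neither passed.

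In the chromosomal passenger complex, which corrects faulty attachments, Incenp and Birc5 were lower in stem-enriched cells than in total marrow. Incenp, the scaffold, had 7939, 4564 and 5667 in stem-enriched cells, 6648, 4857 and 8636 in the cKit-positive cells, 6731, 9916 and 9017 in cKit-negative cells, 9279, 10428 and 9823 in lineage-depleted marrow and 14096, 12543 and 10311 in total marrow. All stem-enriched and cKit-positive samples lay below all total marrow samples, by -1.05 ± 0.25 (2.07-fold, adjusted p = 0.00889) and -0.90 ± 0.25 (1.87-fold, adjusted p = 0.0198). Birc5 (survivin) differed by -1.07 ± 0.32 (adjusted p = 0.0353) in stem-enriched cells. The kinase of the complex, Aurkb, was not called, at -0.35 in stem-enriched cells and -0.37 in the cKit-positive cells.

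All 4 genes of anaphase promotion and cohesin cleavage were lower in stem-enriched cells than in total marrow, with a median difference of -1.01 and a range of -1.30 to -0.83. They are Cdc20, the activator of the anaphase-promoting complex; Ube2c, its ubiquitin-conjugating enzyme; Espl1, the protease separase; and Pttg1, its inhibitor securin. Cdc20 signal was 8145, 7725 and 6622 in stem-enriched cells, 8532, 6494 and 8438 in the cKit-positive cells, 8676, 7746 and 6240 in cKit-negative cells, 10388, 10075 and 11439 in lineage-depleted marrow and 19475, 15864 and 13919 in total marrow. The 3 replicated sorted populations lay together below lineage-depleted marrow, and that lay below total marrow, with no overlap at either step.

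The Cdc20 difference from total marrow was -1.12 ± 0.20 in stem-enriched cells (2.18-fold, adjusted p = 0.00108), -1.07 ± 0.20 in cKit-positive cells (2.10-fold, adjusted p = 0.00144) and -1.12 ± 0.20 in cKit-negative cells (2.17-fold, adjusted p = 0.0132). Under the lot block these were -0.83 (adjusted p = 0.14), -0.87 (adjusted p = 0.048) and -0.90 (adjusted p = 0.35). Cdc20 was the only one of 47 genes called in cKit-negative cells against total marrow (0.287% of all genes were called lower). That call was lost without cKit-negative replicate 2 or 3 or total marrow replicate 1 or 2. The count was 2 without stem-enriched replicate 3, cKit-positive replicate 1 or cKit-negative replicate 1, and 6 without cKit-positive replicate 2. Ube2c signal was 2573, 2243 and 2786 in stem-enriched cells, 2641, 5333 and 2873 in the cKit-positive cells, 4830, 2143 and 2772 in cKit-negative cells, 4360, 3603 and 3678 in lineage-depleted marrow and 4957, 6643 and 7222 in total marrow. Stem-enriched samples sat close together below total marrow, while 1 cKit-positive sample exceeded its lowest value and 1 cKit-negative sample came close to it. Its call was in stem-enriched cells, at -1.30 ± 0.30 (2.45-fold, adjusted p = 0.00752). Pttg1 was lower in stem-enriched cells (-0.83, adjusted p = 0.039) and cKit-positive cells (-1.06, adjusted p = 0.00915), and Espl1 in stem-enriched cells (-0.90, adjusted p = 0.0375).

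Of 5 spindle checkpoint genes, 2 were lower in stem-enriched cells than in total marrow (median difference -0.53) and 1 in cKit-positive cells (median -0.69). Bub1, a checkpoint kinase at kinetochores, differed by -1.01 (adjusted p = 0.0274) and Ttk, the kinase that starts checkpoint signalling, by -1.19 (adjusted p = 0.0408) in stem-enriched cells, the second falling to -0.73 without stem-enriched replicate 3. Bub3, a kinetochore docking protein, differed by -0.84 (adjusted p = 0.0346) in cKit-positive cells. Mad2l1, which inhibits Cdc20, was not called, at -0.14 with an interval of -0.70 to 0.42 in stem-enriched cells.

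Cenpf, a large coiled-coil protein of the outer kinetochore, was the one gene called among 5 of the centromere and kinetochore. Its signal was 3471, 3735 and 3872 in stem-enriched cells, 3498, 2879 and 3252 in the cKit-positive cells, 8165, 5358 and 5100 in cKit-negative cells, 3753, 6983 and 6151 in lineage-depleted marrow and 9061, 9692 and 9074 in total marrow. Stem-enriched and cKit-positive samples lay together below every cKit-negative and total marrow sample. The difference from total marrow was -1.33 ± 0.24 in stem-enriched cells (2.51-fold, adjusted p = 0.0011) and -1.53 ± 0.24 in the cKit-positive cells (2.90-fold, adjusted p = 0.000299), and -0.90 (adjusted p = 0.163) and -1.25 (adjusted p = 0.0148) under the lot block.

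Among 7 mitotic kinesins, Kif22 and Kif2c were lower in stem-enriched cells and Kif22, Kif2c and Kif23 in cKit-positive cells. Kif22 pushes chromosome arms towards the spindle middle. Its signal was 6767, 4914 and 4841 in stem-enriched cells, 5571, 2137 and 3685 in the cKit-positive cells, 7510, 6445 and 5901 in cKit-negative cells, 5494, 5830 and 5810 in lineage-depleted marrow and 12610, 10602 and 11952 in total marrow. Total marrow lay above every other sample, with a difference of -1.10 ± 0.27 for stem-enriched cells (2.15-fold, adjusted p = 0.0106), -1.73 ± 0.27 for cKit-positive cells (3.31-fold, adjusted p = 0.000325) and -1.03 ± 0.27 for lineage-depleted marrow (2.05-fold, adjusted p = 0.0394). Under the lot block the stem-enriched difference was -0.34 (adjusted p = 0.667).

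Kif2c, a microtubule depolymerase at centromeres, had 3505, 1719 and 1534 in stem-enriched cells, 4374, 683 and 1930 in the cKit-positive cells, 4541, 2158 and 2168 in cKit-negative cells, 6000, 4551 and 5036 in lineage-depleted marrow and 8187, 6942 and 7019 in total marrow. Every sample of the other populations lay below total marrow, though 1 sample of each sorted population was at least about 2 times the others. The difference was -1.81 ± 0.49 in stem-enriched cells (adjusted p = 0.0196) and -2.04 ± 0.49 in the cKit-positive cells (adjusted p = 0.00868), and under the lot block -0.19 (adjusted p = 0.904) and -0.95 (adjusted p = 0.229). Kif23, a kinesin of the central spindle, had 2900, 3544 and 3464 in stem-enriched cells, 2793, 2238 and 2576 in the cKit-positive cells, 4690, 3465 and 5612 in cKit-negative cells, 4329, 3811 and 4369 in lineage-depleted marrow and 4129, 4360 and 4679 in total marrow. All cKit-positive samples lay below all samples of the other populations, and the difference was -0.80 ± 0.20 from total marrow (1.74-fold, adjusted p = 0.0127) and -0.83 ± 0.20 from cKit-negative cells (1.78-fold, adjusted p = 0.013).

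Both called genes of spindle microtubule binding were lower in both populations. Nusap1, which bundles microtubules near chromosomes, had 4265, 4204 and 4228 in stem-enriched cells, 3927, 3092 and 3202 in the cKit-positive cells, 7893, 4648 and 5197 in cKit-negative cells, 5352, 4239 and 4594 in lineage-depleted marrow and 8052, 9606 and 9770 in total marrow. Total marrow lay above every other sample. The difference was -1.11 ± 0.21 in stem-enriched cells (2.15-fold, adjusted p = 0.00194), -1.43 ± 0.21 in cKit-positive cells (2.69-fold, adjusted p = 0.000206) and -0.95 ± 0.21 in lineage-depleted marrow (1.94-fold, adjusted p = 0.0178). Prc1, which bundles the central spindle, differed by -0.92 (adjusted p = 0.0307) and -0.88 (adjusted p = 0.0327) in stem-enriched and cKit-positive cells. Hmmr did not pass, at -0.84 and -0.74.

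In the group of chromosome structure, Mki67 had the lowest F test p of the 47. It encodes Ki-67, the proliferation marker that coats mitotic chromosomes. Its signal was 9383, 8067 and 8835 in stem-enriched cells, 10231, 4761 and 7452 in the cKit-positive cells, 29962, 18275 and 16854 in cKit-negative cells, 15133, 12588 and 11444 in lineage-depleted marrow and 24102, 25311 and 26856 in total marrow. Stem-enriched and cKit-positive samples were all below every sample of lineage-depleted marrow, cKit-negative cells and total marrow. The difference from total marrow was -1.54 ± 0.26 in stem-enriched cells (2.90-fold, adjusted p = 0.000828) and -1.83 ± 0.26 in the cKit-positive cells (3.56-fold, adjusted p = 0.000163). Under the lot block these were -0.85 (adjusted p = 0.136) and -1.37 (adjusted p = 0.00371). Lineage-depleted marrow differed from total marrow by -0.97 ± 0.26 (1.96-fold, adjusted p = 0.0474).

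The condensin cores Smc2 and Smc4 fold mitotic chromosomes. Smc2 signal, on chip type B, was 7371, 3826 and 2578 in stem-enriched cells, 11917, 2969 and 7204 in the cKit-positive cells, 12678, 12371 and 9081 in cKit-negative cells, 8455, 17244 and 15288 in lineage-depleted marrow and 20551, 19987 and 12025 in total marrow. Replicates ranged widely, but stem-enriched and cKit-positive samples all lay below total marrow, by -2.03 ± 0.44 (4.08-fold, adjusted p = 0.00401) and -1.43 ± 0.44 (2.69-fold, adjusted p = 0.032). Smc4 had 10852, 9846 and 10462 in stem-enriched cells, 9861, 6213 and 7259 in the cKit-positive cells, 12213, 10384 and 10700 in cKit-negative cells, 9335, 10780 and 10835 in lineage-depleted marrow and 14296, 14734 and 17821 in total marrow. Total marrow was above all others, and the call by this probe set was in cKit-positive cells, at -1.03 ± 0.19 (2.04-fold, adjusted p = 0.00164). Ncaph, a condensin linker, was lower in cKit-positive cells than in total marrow by 0.62 on the log2 scale (adjusted p = 0.0314). By other probe sets, Smc4 was also called lower in stem-enriched cells than in total marrow and in cKit-negative cells, and Ncaph than in total marrow.

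Top2a, the topoisomerase that untangles sister chromatids, was called nowhere. Its differences from total marrow were -0.23 (interval -0.63 to 0.16) in stem-enriched cells and -0.32 (interval -0.71 to 0.07) in cKit-positive cells, so lower levels of the size seen for Mki67 lay outside both intervals. Of 3 cytokinesis genes, Ect2 (-1.41, adjusted p = 0.0118) and the ring scaffold Anln (-1.19, adjusted p = 0.0258) were lower in cKit-positive cells than in total marrow, and none was called in stem-enriched cells.

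**Figure D3:**
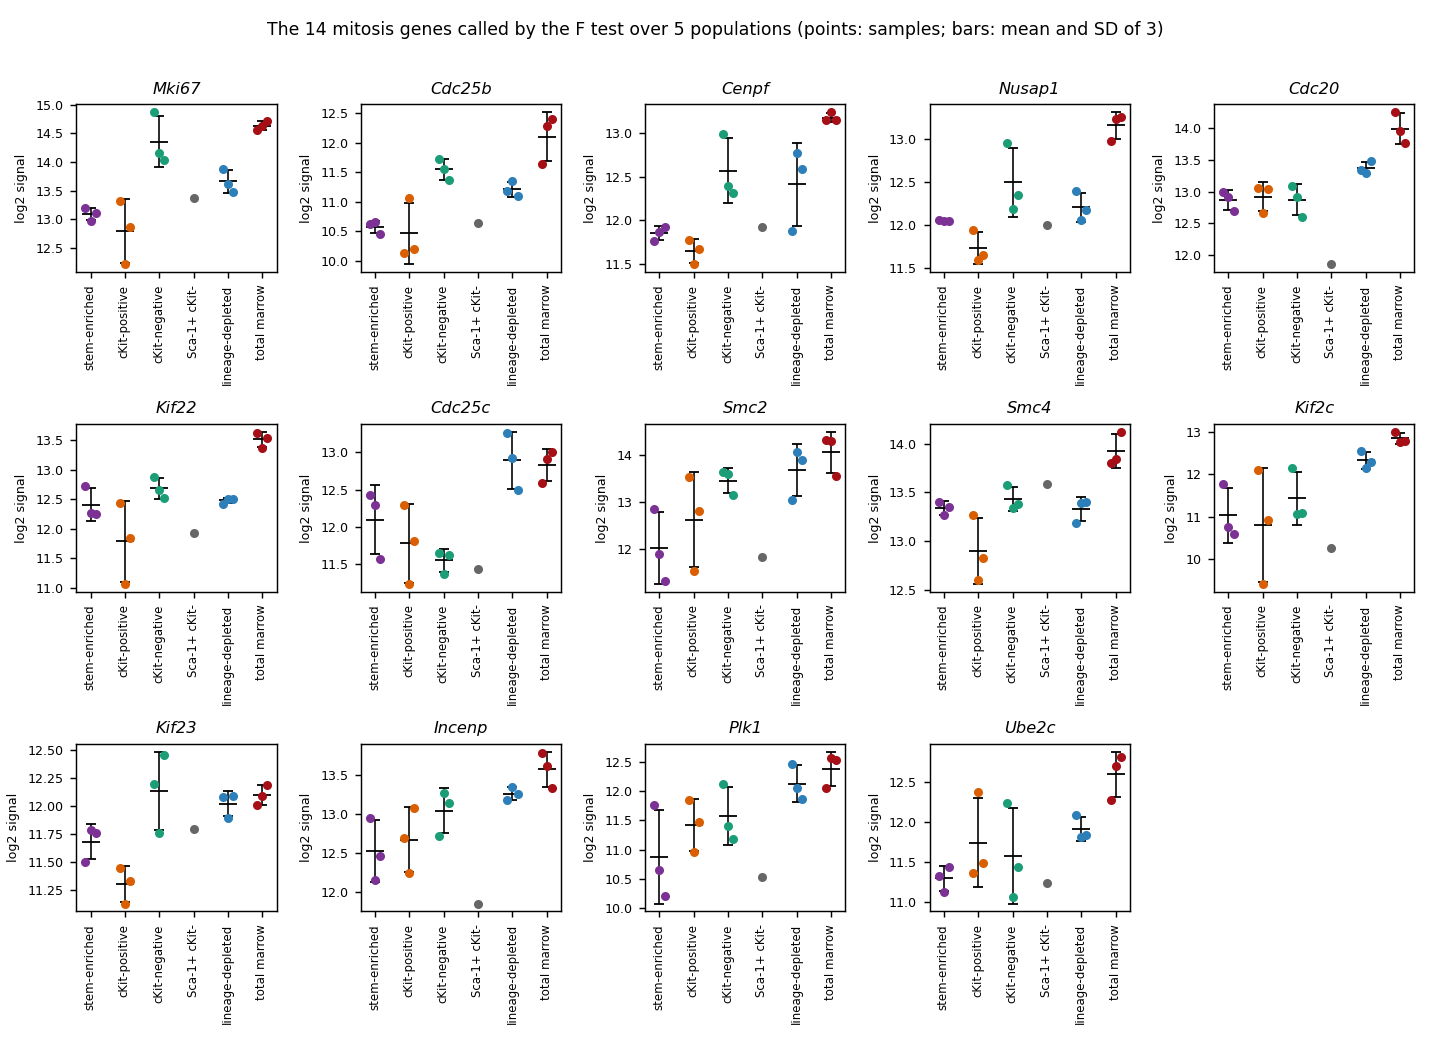
Log2 signal of the 14 mitosis genes called by the F test, 1 panel each, in 6 populations along the x axis; points are samples and bars the mean and SD of 3 samples. Total marrow lies at or near the top of most panels, and Mki67 and Cdc25b also lie high in cKit-negative cells.

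Between the sorted populations the differences were fewer. Stem-enriched and cKit-positive cells gave no call among 47 genes in limma (background 0.654% lower and 1.79% higher), with 7 genes at an unadjusted p under 0.05 and a median difference of 0.08. The median turned to -0.16 without cKit-positive replicate 2, to -0.20 in the fit with a Gapdh covariate and to -0.04 where all probe sets of a gene were averaged. There was 1 lower call without stem-enriched replicate 1 and 2 higher calls without cKit-positive replicate 1. Stem-enriched against cKit-negative cells gave 2 lower genes, Mki67 (-1.26 ± 0.26, 2.40-fold, adjusted p = 0.00572) and Cdc25b, where 5.34% of all genes were called lower, and only Mki67 stayed called with any 1 sample left out. The count was 4 without stem-enriched replicate 1, 6 without cKit-positive replicate 2, and 1 on leaving out replicate 2 or 3 of the stem-enriched cells, or replicate 1 or 2 of the cKit-negative ones. Stem-enriched arrays had a scan day of their own, so the part of scan day in these stem-enriched differences was not tested.

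cKit-positive against cKit-negative cells gave 6 lower genes, where 7.43% of all genes were: Mki67 (-1.56 ± 0.26, 2.94-fold, adjusted p = 0.000963), Cdc25b, Cenpf (-0.92, adjusted p = 0.0178), Kif23, Nusap1 (-0.76, adjusted p = 0.0263) and Kif22 (-0.90, adjusted p = 0.0394).

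Of those 6, Mki67 alone stayed called with any 1 sample left out, the count was 2 without cKit-negative replicate 1, and Kif22 was at -0.54 without cKit-positive replicate 2. With scan day as a block on chip type A the count was 1. There only cKit-positive replicate 1 had another scan day, so the block takes that sample out of the comparison and leaves replicates 2 and 3. Within the shared lot the count was 0, with Mki67 at -1.56 (adjusted p = 0.147) over 2 samples of each population on chip type A. Against lineage-depleted marrow, neither stem-enriched nor cKit-positive cells had a call in limma by a brightest probe set (background 1.96% and 1.61% lower). In each comparison 16 genes had an unadjusted p under 0.05. The median differences were -0.38 and -0.44, and with chip lot as a block -0.09 and -0.16. With the Gapdh covariate 6 and 1 genes were called, and the second median was -0.27. Stem-enriched cells had 3 lower calls without stem-enriched replicate 1, 1 without cKit-positive replicate 1 and 4 without cKit-positive replicate 2. cKit-positive cells had 5 without cKit-positive replicate 1, and 1 without cKit-positive replicate 2 or lineage-depleted replicate 1. Samples did not overlap, on the lower side, for 20 and 16 genes in these 2 comparisons (background 13.1% and 9.26%). Lineage-depleted marrow against total marrow gave 3 lower genes, Kif22, Mki67 and Nusap1 (background 2.61%), of which Kif22 was at -0.86 (adjusted p = 0.167) with the lot block, and the count was 0 without total marrow replicate 2, total marrow replicate 3, lineage-depleted replicate 2 or lineage-depleted replicate 3. It was 1 without stem-enriched replicate 2 or 3, cKit-negative replicate 2 or lineage-depleted replicate 1, and 8 without cKit-positive replicate 2. In 15 genes its samples all lay below total marrow (background 13.6%), and in 19 genes those of cKit-negative cells did (11.2%), while the median differences were -0.26 and -0.42. The first was -0.14 without total marrow replicate 2, and the second -0.19 with the lot block. Stem-enriched and cKit-positive samples lay below all cKit-negative samples for 10 genes each (backgrounds 13.3% and 12.6%), and cKit-negative samples lay below all of lineage-depleted marrow for 8 (16.3%).

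In the single sample of Lin-Sca-1+cKit- cells, 43 of 47 mitosis genes (91.5%) lay below all 3 total marrow samples, against 32.6% of all genes. For 9 genes it was the lowest of all 16 samples, namely Anln, Aurkb, Ccnb2, Cdc20, Cdk1, Incenp, Kif20a, Plk4 and Prc1 (19.1%, against 7.35% of all genes), and for none the highest (7.86% of all genes). Cdk1 signal was 3974 and Cdc20 signal 3709 in it. Its arrays shared chip lot and scan day with all total marrow arrays on both chip types, and with no array of the replicated sorted populations on both counts. With 1 sample there is no test.

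Several genes were measured by over 1 tested probe set, and these did not always run together. Of 28 such genes, 19 had every probe set below 0 in stem-enriched cells against total marrow, 8 were mixed (Bub1, Bub1b, Cenpa, Cenpf, Incenp, Kif2c, Nek2 and Tpx2) and 1 had all above. Of the 92 member probe sets, 27 were called lower and 0 higher there (14.2% of all probe sets were called), and in cKit-positive cells 24 were lower and 1 higher (16.9%). Of the 17 genes called in stem-enriched cells, 9 had other tested probe sets, 15 in all, of which 2 were called and 5 had the opposite sign. Kif2c stood at -1.81 by its brightest probe set, whose name ends in x_at and which can bind related transcripts, against -0.16, 0.19 and 0.61 by the others. The brightest probe sets of 8 genes have such names, those besides Kif2c being Cdc20, Cdc25c, Kif22, Incenp, Ncaph, Aurkb and Tpx2. Cenpf stood at -1.33, against 0.26 and -1.71 (adjusted p = 0.0653) by the others. In cKit-positive cells against total marrow 13 of the 28 genes were mixed, among them the called Anln, Bub3, Cenpf, Incenp and Kif2c. Of the 18 genes called there, 13 had other tested probe sets, 21 in all. Of those probe sets 3 were called and 8 had the opposite sign.

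Other genes were called only by a probe set that was not their brightest. Against total marrow they were Ccna2, Kif11, Ncapg, Ncaph, Smc4 and Tpx2 in stem-enriched cells, and Ccna2, Racgap1 and Tpx2 in cKit-positive cells. Against cKit-negative cells they were Kif11 and Smc4 in stem-enriched cells and Racgap1 and Tpx2 in cKit-positive cells. Against lineage-depleted marrow Ccna2 was so called lower in stem-enriched cells. Ccna2, the A-type cyclin, was at -0.32 by its brightest probe set and at -1.49 (adjusted p = 0.000637) by another in stem-enriched cells. Tpx2, which activates aurora A at spindle poles, had 5985, 6276 and 7209 in stem-enriched cells and 7913, 13081 and 7862 in cKit-positive cells, against 5864, 5218 and 5367 in total marrow, by its brightest probe set on chip type B. Both lie above total marrow, yet a pair of probe sets on chip type A gave -0.89 (adjusted p = 0.0175) and -1.11 (adjusted p = 0.0228) in stem-enriched cells. In cKit-positive cells a second probe set of chip type B gave 0.81 (adjusted p = 0.0256), the single higher call among 92 probe sets, and one of chip type A gave -0.72 (adjusted p = 0.0465). The direction of Tpx2 therefore depends on the probe set.

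**Figure D4:**
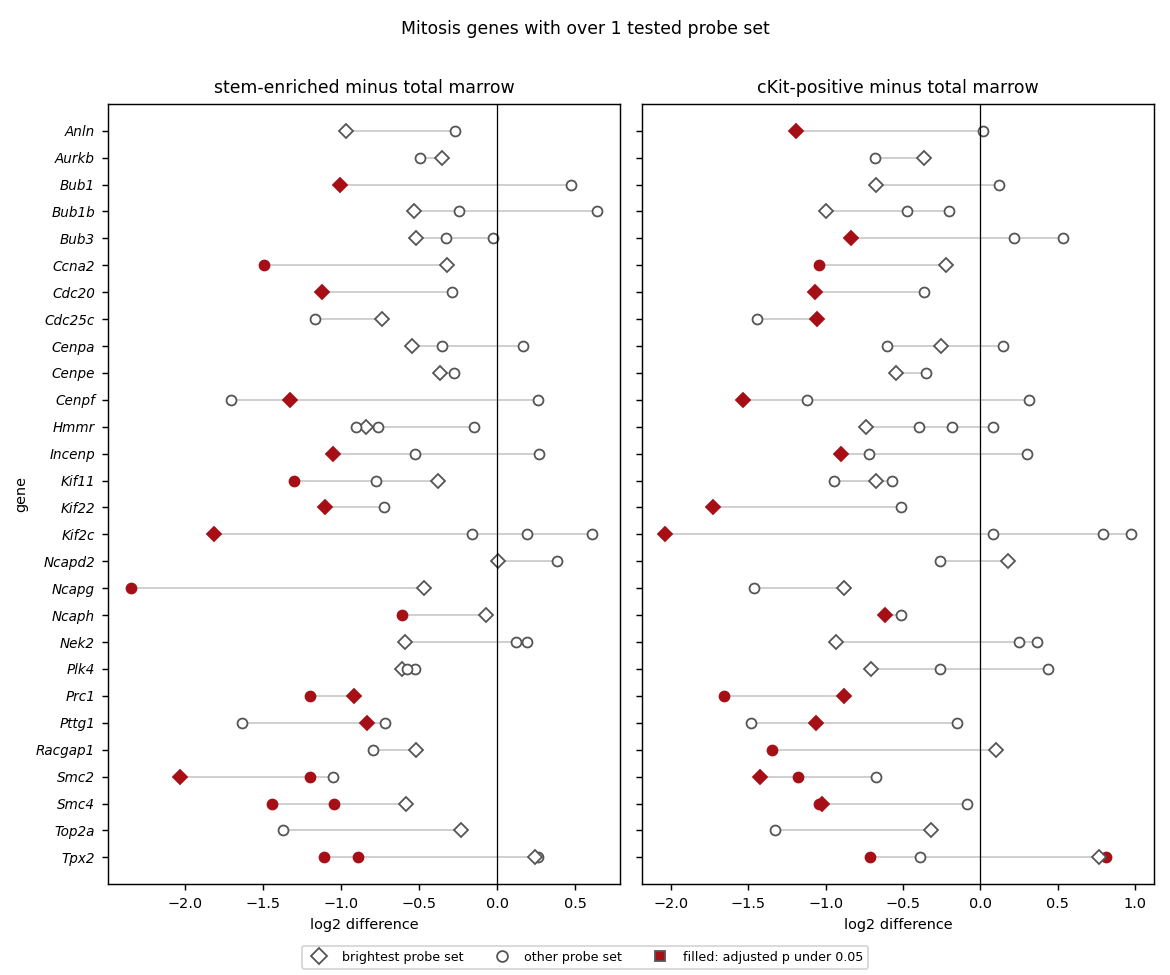
Log2 difference from total marrow for every tested probe set of the mitosis genes that have several (rows), in stem-enriched cells on the left and cKit-positive cells on the right; diamonds are the brightest probe set, circles the others, and filled marks had an adjusted p under 0.05. Kif2c, Cenpf and Tpx2 spread across 0.

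Related gene lists gave smaller shares of lower genes against total marrow, none above those of all genes. Of 63 other mitosis genes tested, 3 were lower and 2 higher in stem-enriched cells than in total marrow, with a median of -0.21. These were 4.76% and 3.17% of the list, against 8.25% and 8.38% of all genes. The lower ones included Ccnf (-2.17, adjusted p = 0.0137) and the condensin gene Ncapg2 (-1.58, adjusted p = 0.00365). In cKit-positive cells 5 were lower (7.94%, against 10.7% of all genes) and 2 higher (3.17%, against 9.27%), with a median of -0.22. Of 40 DNA replication genes, 3 were lower and 5 higher in stem-enriched cells, and 4 lower and 4 higher in cKit-positive cells. The lower shares, 7.5% and 10%, were near those of all genes, and the higher shares were 12.5% and 10%. The cyclin genes Ccne1 (-2.72, adjusted p = 0.000666) and Ccne2 (-1.23, adjusted p = 0.0269) and the ribonucleotide reductase gene Rrm2 (-1.46, adjusted p = 0.0198) were the lower ones in stem-enriched cells. Whether the shares differ between lists was not tested.

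**Figure D5:**
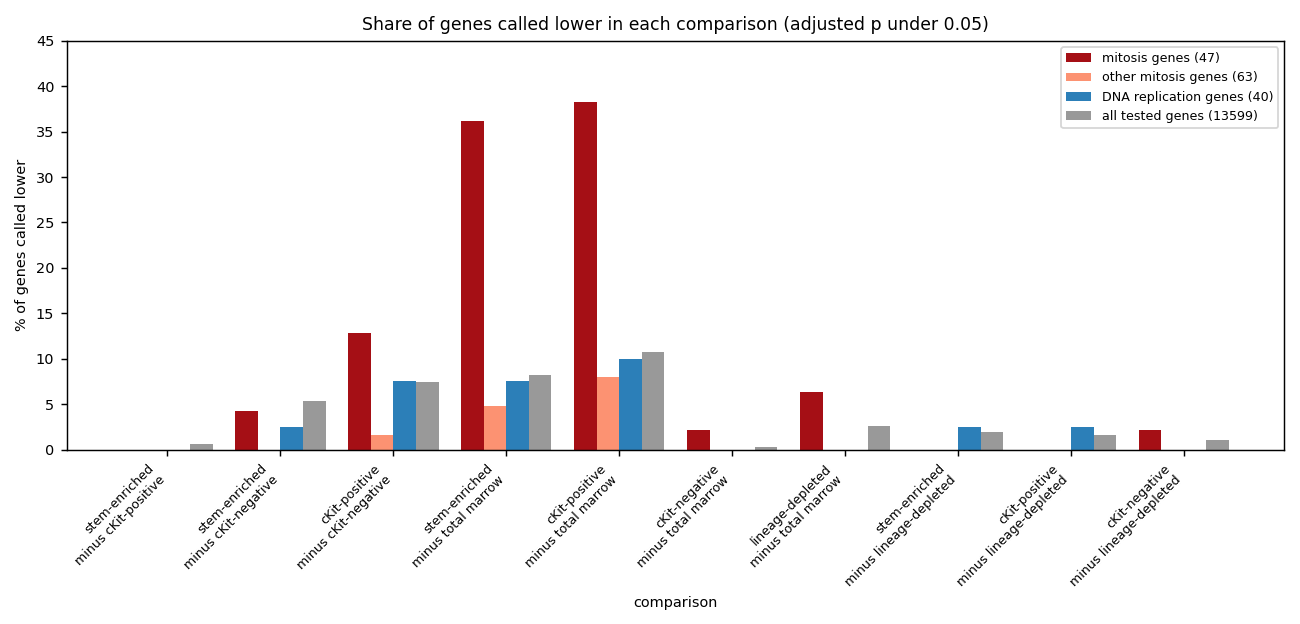
Percent of genes called lower in each of 10 comparisons (x axis), for the mitosis genes, other mitosis genes, DNA replication genes and all tested genes. The mitosis genes reach 36.2% in stem-enriched cells and 38.3% in the cKit-positive cells against total marrow.

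Markers of mature cells moved with these comparisons. Of all genes, 8.25% were called lower and 8.38% higher in stem-enriched cells than in total marrow, and 10.7% and 9.27% in cKit-positive cells. Of 7 early granulocyte-monocyte markers, 0 were called in stem-enriched cells, and 2 were higher and 0 lower in cKit-positive cells. All 9 late granulocyte markers were lower in both stem-enriched and cKit-positive cells than in total marrow, and their summed signal was 30821 to 68161 in stem-enriched cells, 20359 to 36913 in cKit-positive cells, 386566 to 674733 in cKit-negative cells, 228710 to 491994 in lineage-depleted marrow and 606236 to 727526 in total marrow. Of 11 erythroid markers, 10 were lower in stem-enriched cells and 8 lower and 1 higher in cKit-positive cells, with sums of 28926 to 33571 and 41386 to 84096, against 178064 to 268575 in total marrow. None of these markers was at the floor in all samples of a replicated population. Of 9 B lineage markers, 4 and 8 were lower in stem-enriched and cKit-positive cells, of 8 T and NK lineage markers 4 and 5, and of 9 monocyte-macrophage markers 5 and 5. The B lineage sum was 7882 to 15751 in stem-enriched cells and 4642 to 10288 in the cKit-positive cells, against 26604 to 38209 in total marrow, and Rag1 was at the floor in all cKit-positive samples. The T and NK sum was 5651 to 8143 in stem-enriched cells and 8233 to 9945 in the cKit-positive cells, against 12146 to 14913 in total marrow, with Cd3d at the floor in both sorted populations and Cd3g in the stem-enriched one. The monocyte-macrophage sum was 18709 to 37685 and 27569 to 29977 in these populations, against 49810 to 60431 in total marrow, with C1qa at the floor in both. In cKit-negative cells 4 of 8 T and NK markers were higher and 2 of 9 B lineage markers lower than in total marrow (0.588% and 0.287% of all genes). None of the 9 late granulocyte markers was called there by limma (1 had an unadjusted p under 0.05). In cKit-negative cells the erythroid sum was 55020.7 to 232335 and the monocyte-macrophage sum 53500.3 to 68586.6. The B lineage sum was 8938.21 to 17014.3 there and the T and NK sum 34643.5 to 59763.2. Signal of granulocyte, erythroid and monocyte markers was thus present in these cells beside that of lymphoid ones. The part of all these markers in the mitosis gene differences was not tested. Of 12 stem cell markers, 10 were higher in stem-enriched cells and 3 in the cKit-positive cells, and Kit averaged 12.24 ± 0.09 and 12.19 ± 0.13 log2 units there, against 9.79 ± 0.46 in cKit-negative cells, 11.70 ± 0.07 in lineage-depleted marrow and 10.82 ± 0.31 in total marrow (SD, n = 3 each).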

How the data were processed

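RNA of 16 samples was hybridised to chip types A and B (MOE430A and MOE430B), 32 arrays in all. The deposited values are MAS5 signals, an intensity per probe set, per the submitters' processing notes, with no version named there. The 2% trimmed mean was about 1500 on every array, and the median signal was 453 to 879.9 on chip type A and 789.9 to 1011 on chip type B. Chip lots and scan days came from the deposited instrument records. Array number limits the precision. Every deposited value column was mapped to a sample.

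Signals were floored at the 25th percentile of the chip type (162.3 for A, 268.1 for B) and log2 transformed, with no further scaling. Probe sets above the chip type's median (535.3 and 843.8) on at least 3 arrays were fitted with limma 3.58.1 (R 4.3.3; lmFit, eBayes with trend) per chip type, with population as the only factor over 15 samples. Benjamini-Hochberg adjustment ran over 28949 probe sets of both chips. Python 3.11.15 (pandas 2.3.3, NumPy 2.4.6) described the fits, and matplotlib 3.10.9 drew the figures. The fit was tested on simulated data. Of 45037 probe sets, 34945 had 1 gene symbol, 932 several and 9160 none, and 100 on both chips were kept on A.

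Values in every sample are given for members called by the F test, and differences for the members with the largest changes in each comparison. Cdk1, Top2a, Tpx2 and the others named outside that rule were chosen after their values were seen. Members, gene lists and tests were chosen with earlier results of these data known. The single Lin-Sca-1+cKit- sample entered no test. Same-numbered samples were not treated as pairs.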

Additional observations from a re-analysis of the deposited data

How the results depend on the processing

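No called difference changed sign under the alternatives run. Leaving out 1 sample at a time gave 9 to 19 genes in the F test, 8 to 22 for stem-enriched cells and 11 to 23 for cKit-positive cells against total marrow, 0 to 6 for cKit-negative cells and 0 to 8 for lineage-depleted marrow against it. It gave 0 to 2 for stem-enriched against cKit-positive cells, 1 to 6 and 2 to 8 for these populations against cKit-negative cells, and 0 to 4, 0 to 5 and 0 to 1 for the 3 sorted populations against lineage-depleted marrow. With chip lot as a block on chip type A the F test called 7 genes. The lot block called 2 in stem-enriched, 8 in cKit-positive and 0 in cKit-negative cells against total marrow, 1 in stem-enriched against cKit-negative cells and 0 in cKit-negative cells against lineage-depleted marrow. The 8 genes represented on chip type B had no block, so their calls could change only through the adjustment of p. Within 1 lot, an alternative chosen after seeing the data, counts were 4 for cKit-positive cells and 0 for lineage-depleted marrow against total marrow, and 0 for both cKit-positive against cKit-negative cells and cKit-negative cells against lineage-depleted marrow. On chip type A these fits hold 1 sample of the first-named population, which is assumed to vary like the other, except for 2 against 2 between the cKit sorts. With scan day as a block, which takes cKit-positive replicate 1 out on chip type A, cKit-positive against cKit-negative cells gave 1. Without a filter the F test gave 9, stem-enriched against cKit-negative cells 1, lineage-depleted against total marrow 1 and cKit-negative cells against lineage-depleted marrow 0. Without the variance trend the F test gave 9, and the last 2 of these gave 1 and 0. Quantile normalization gave 11 for stem-enriched cells against total marrow and 0 for cKit-negative cells against lineage-depleted marrow. Fitting only the 2 compared populations gave 4 and 1 for stem-enriched and cKit-positive against cKit-negative cells, 8, 4 and 9 for cKit-positive cells, cKit-negative cells and lineage-depleted marrow against total marrow, and 2 for stem-enriched cells against lineage-depleted marrow. The Gapdh ratio as a covariate gave 6 for stem-enriched against cKit-negative cells, 5 and 8 for cKit-negative cells and lineage-depleted marrow against total marrow, and 6 and 1 for stem-enriched and cKit-positive cells against lineage-depleted marrow. The slope of that covariate rests largely on cKit-positive replicate 2. The mean over probe sets gave 4 for stem-enriched against cKit-negative cells. A change of at least 2-fold left 1 and 2 for stem-enriched and cKit-positive against cKit-negative cells and 1 for lineage-depleted against total marrow. A floor at the 50th or a filter at the 75th percentile gave 2 for cKit-negative cells against total marrow. The cause was not tested. With the replicate block, stem-enriched cells against lineage-depleted marrow gave 1, stem-enriched cells against total marrow 18, cKit-positive cells 19 and the F test 13, while same-numbered samples correlated at -0.088 to 0.152 and no comparison had every pair over 0.1.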
